A study of Sus scrofa with 3 samples.

Results

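The comparison covered the late growth of the porcine psoas major, a deep loin muscle, between 98 d and 161 d of age. Each age was 1 small RNA library made from the pooled RNA of several castrated male crossbred pigs (Landrace, Large White and Duroc), described in the labels as fattening pigs with no treatment, and the 63 d library of the same muscle is quoted only where its level is set beside the others. The members were all miRNA names of the 98 d and 161 d libraries, 1706 of the 1933 names in the series, of which 303 were porcine, 768 were named after another mammal and 635 were predicted candidates. Of these names 787 were listed in both libraries, 521 at 98 d only and 398 at 161 d only. A name was counted when it had at least 100 reads in either library, which left 306 names, 179 of them porcine. Because there was 1 library per age, there is no replicate check and no p-value: every fold compares these 2 libraries, and its 95% interval (Clopper-Pearson) covers counting error only.

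miRNAs are short RNAs cut from hairpin precursors, and either arm of the hairpin (5p or 3p) can be loaded into a silencing complex that represses matching messenger RNAs. Pairing rests mainly on the seed, bases 2 to 8 from the 5′ end, so miRNAs with the same seed form a family, while hairpins made from 1 transcript form a genomic cluster. In skeletal muscle the best known are miR-1, miR-133 and miR-206, which act in myoblast proliferation and differentiation.

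The representative reads of the miRNAs on which the results turn are given here as the files list them, with the seed in capitals. The first pair gives the same miRNA at 98 d and 161 d, and the others show the families and clusters that differed most.
miR-133a-3p at 98 d: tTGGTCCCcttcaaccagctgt
miR-133a-3p at 161 d: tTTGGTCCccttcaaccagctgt
miR-143-3p: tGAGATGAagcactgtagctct
miR-145-5p: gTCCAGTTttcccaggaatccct
miR-140-3p: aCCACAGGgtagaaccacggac
miR-181a: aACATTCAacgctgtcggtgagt
miR-181b: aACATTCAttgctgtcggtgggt
miR-181c: aACATTCAacctgtcggtgagtt
miR-450a: tTTTGCGAtgtgttcctaatat
miR-450b-5p: tTTTGCAAtatgttcctgaat
miR-450c-5p: tTTTGCGAtgtgttcctaatac
miR-192 at 98 d: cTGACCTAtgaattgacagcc
miR-215 at 98 d: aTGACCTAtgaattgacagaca
miR-1: tGTAATGTaaagaagtatgtat
miR-206: tGTAATGTaaggaagtgtgtga
The 3 miR-181 reads carried 1 seed, as did miR-450a and miR-450c-5p, whereas miR-450b-5p differed from them inside the seed. The reads of miR-192 and miR-215 shared their seed. The most frequent reads of miR-1 and miR-206 were annotated in the files with the substitution G3T (positions run from 1 at the 5′ base of the database miRNA), so the seed printed for these 2 is that of the read and not of the database entry.

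The libraries held 2418187 reads at 98 d and 2242716 at 161 d over all listed names, and porcine names took 91.3% and 91.4% of them. miR-133a-3p alone took 36.2% of the reads at 98 d and 44.0% at 161 d. The ages were therefore scaled by the median ratio over the 254 names with at least 100 reads in both libraries, and levels are given as reads per 1000000 reads of the 98 d library. On this scale 12 of the 306 counted names (3.92%) were at least 2-fold higher at 161 d and 26 (8.5%) at least 2-fold lower. Among the porcine names 5 of 179 (2.79%) were higher and 9 (5.03%) lower. With the smaller limit of 1.2-fold, 64 names (20.9%) were higher, 102 (33.3%) lower and 140 lay between, and of the porcine names 40 (22.3%) were higher and 54 (30.2%) lower. Scaling by library totals instead would divide every fold by 1.203, so that folds between 1 and 1.203 would come below 1. Of the 10 porcine names with most reads, those not described below were miR-486 (1.27-fold), miR-10b (1.10), miR-378 (1.08), miR-30e-5p (0.97), miR-26a (0.95) and let-7a (0.85).

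**Figure D1:**
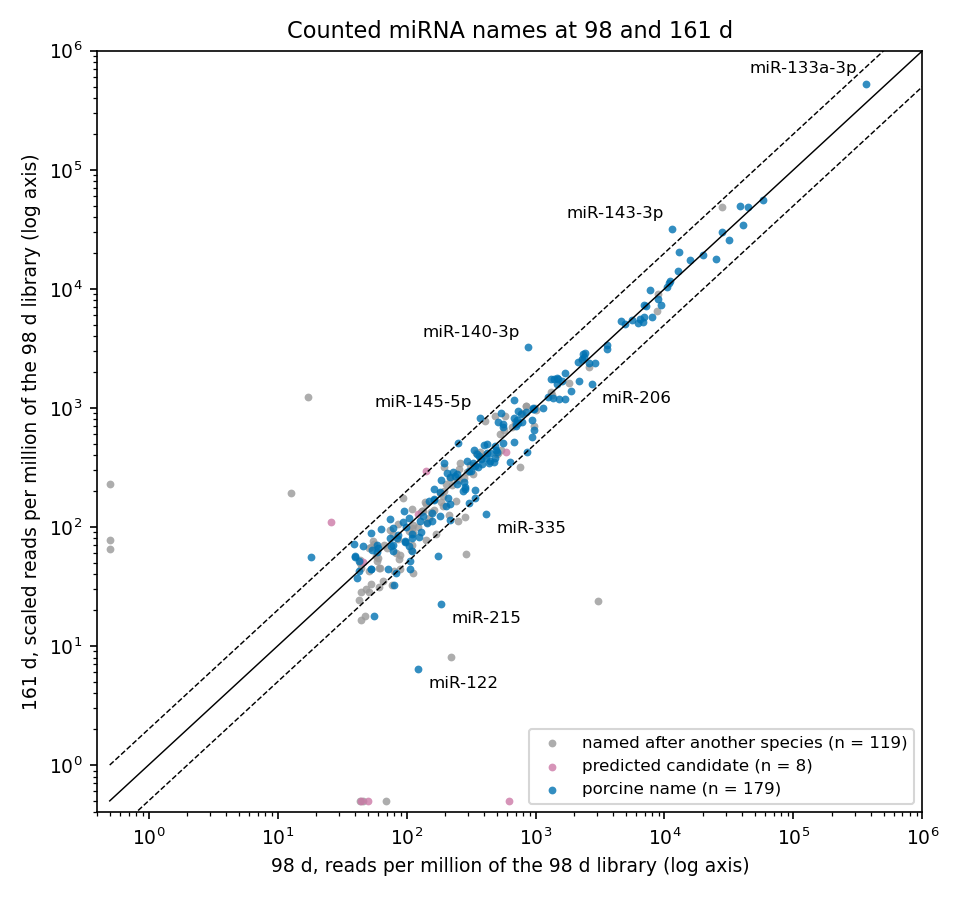
Level of each of the 306 counted names at 98 d (x axis) and 161 d (y axis), in reads per 1000000 reads of the 98 d library on log axes, with the line of equal level (solid) and 2-fold lines (dashed). Names with a level under 0.5 in a library are drawn at 0.5. The porcine names follow the line closely over the whole range, with miR-140-3p and miR-143-3p above the upper dashed line and miR-335, miR-215 and miR-122 below the lower one.

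The cluster of miR-143 and miR-145, which is best known from smooth muscle, was 2.76-fold higher as a sum of its 4 porcine names (2.72 to 2.80), the highest value among the 21 clusters with at least 100 reads. miR-143-3p had a level of 9451 in the 63 d library, 11451 in that of 98 d and 31885 in that of 161 d, and was 2.78-fold higher at 161 d than at 98 d (2.75 to 2.82). miR-145-5p had levels of 492, 372 and 828 at the 3 ages and was 2.22-fold higher (2.05 to 2.42). For both miRNAs the 161 d library stood above the other two, and miR-145-5p was lower at 98 d than at 63 d. The other arms went the same way, with 3.74-fold for miR-143-5p on 25 and 72 reads and 1.42-fold for miR-145-3p. Both hairpins lie on 1 strand within 1490 bases (157344726 to 157346215 in the coordinates of the files, whose genome build is not given in the sources used here), on the sequence whose other miRNA genes are on chromosome 2 in the RefSeq table of Sscrofa11.1. In bulk muscle, more cells of a type and more RNA per cell cannot be told apart. miR-126, the endothelial marker, was lower on both arms (0.82 and 0.84-fold), and whether vessel content moved with miR-143 and miR-145 was not tested.

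miR-140-3p, a miRNA known from cartilage, showed the largest fold of any porcine name with 100 reads in both libraries. Its levels at the 3 ages were 1080, 879 and 3232, a 3.68-fold difference between the last 2 ages (3.50 to 3.86). The other arm of the hairpin did not share this size: miR-140-5p had 104 reads at 98 d and 96 at 161 d, a fold of 1.197 (0.90 to 1.60).

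The miR-181 family, known in muscle for a role in myoblast differentiation, was 1.52-fold higher as a sum of its 4 porcine names (1.499 to 1.541). Its median log2 fold was 0.45, against −0.04 over all counted names. miR-181a had levels of 19512, 12922 and 20473 at the 3 ages, so the 161 d level was near that at 63 d. miR-181c was 2.01-fold higher, the value just inside the 2-fold limit, and miR-181a 1.58-fold, whereas miR-181b and miR-181d-5p were at 1.12 and 1.18-fold, both of which come below 1 when scaled by library totals. The 3p reads named hsa-miR-181a-3p and mdo-miR-181a-2-3p were 1.91 and 1.77-fold higher, so both arms of miR-181a were higher at 161 d. All 3 positional pairs of miR-181 hairpins showed the same order, with the a or c member above its b or d neighbour. The pairs of miR-181a with miR-181b hold divided reads of the same miRNAs, so they are not independent of each other.

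Among the other porcine names with the largest positive folds were miR-885-5p (1.76), miR-340 (1.70), miR-425-3p (1.67), miR-7134-3p (1.67) and miR-769-5p (1.57). The 3p arm of miR-22, listed as aja-miR-22 and ssc-miR-22-3p, had 67982 reads at 98 d and 91513 at 161 d. Its fold was 1.75 (1.73 to 1.76), and the porcine name held only 16 and 36 of these reads. miR-340 showed levels of 339, 682 and 1159 from the youngest to the oldest library. The miR-29 family, known for collagen and matrix targets, was 1.39-fold higher as a sum (1.31 to 1.48), with miR-29a at 1.48 and miR-29c at 1.26. Only miR-29b stayed under 1.2-fold, at 1.10 (0.86 to 1.41). miR-29a and miR-29c were listed with the same representative read, with unscaled copies of 422 at 98 d and 362 at 161 d. Their 2 folds are therefore not independent.

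The muscle-specific miRNAs did not move together. miR-133a-3p had a level of 361663 at 98 d and 528949 at 161 d, 1.46-fold higher. The 5p arm of the same hairpins was not higher, at 0.98-fold for mir-133a-1 and 0.97-fold for mir-133a-2. miR-1, which is made from the same transcripts, was at 31642 and 25573, 0.81-fold. miR-206 was 0.58-fold (0.56 to 0.61) and its neighbour miR-133b 1.04-fold (1.00 to 1.09). miR-208b and miR-499-5p, which are encoded in slow myosin heavy chain genes, were 0.87 and 0.71-fold. The values of miR-1 and miR-206 rest almost wholly on reads with a mapping error. At 98 d 4.41% of the miR-1 reads and 4.67% of the miR-206 reads mapped without one, compared with 88.0% for miR-133a-3p. Counted on error-free reads alone, miR-206 was 1.09-fold and miR-1 0.96-fold.

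The let-7 family, abundant in differentiated tissue, was lower as a whole, at 0.80-fold over its 9 porcine names (0.80 to 0.81). All 9 were below 1, and 5 of them were at least 1.2-fold lower. let-7f (0.71), let-7g (0.72) and let-7d-5p (0.73) were the lowest, and let-7e, let-7d-3p and let-7c stayed between 0.97 and 0.99.

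The cluster of miR-424, miR-503, miR-542 and miR-450 was 0.59-fold as a sum (0.57 to 0.62). All 5 of its counted porcine names were at least 1.2-fold lower. miR-450c-5p had levels of 333, 855 and 427 at the 3 ages, and miR-450b-5p had 363.3, 982 and 654.9, so for these names 98 d was the highest of the 3 libraries. miR-450a was 0.52-fold, miR-542-3p 0.60-fold and miR-424-5p 0.69-fold. The hairpins of miR-542 and the 3 miR-450 members lie within 1113 bases of each other on 1 strand.

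The imprinted DLK1-DIO3 region, which encodes a large group of miRNAs expressed from the maternal chromosome, had 24 counted names when those of other species were included. Of these, 23 were below 1, 20 (83.3%) were at least 1.2-fold lower and 10 (41.7%) at least 2-fold lower, against 33.3% and 8.5% of all counted names. The list did not hold bta-miR-411c-5p, a further name of miR-411 that was 0.43-fold, and one of its 2-fold names was oar-miR-495-3p, whose read was listed under bta-miR-495 at 161 d. miR-493-5p (0.31), miR-382 (0.41), miR-432-5p (0.42) and miR-369 (0.52) were the porcine names with the lowest folds. The most read member, miR-127, was 0.94-fold, with levels of 7282, 3608 and 3389 at the 3 ages. Without miR-127 and bta-miR-381 the sum of the other 22 names was 0.57-fold (0.55 to 0.59). Many of these names share a transcript and are not independent of each other.

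**Figure D2:**
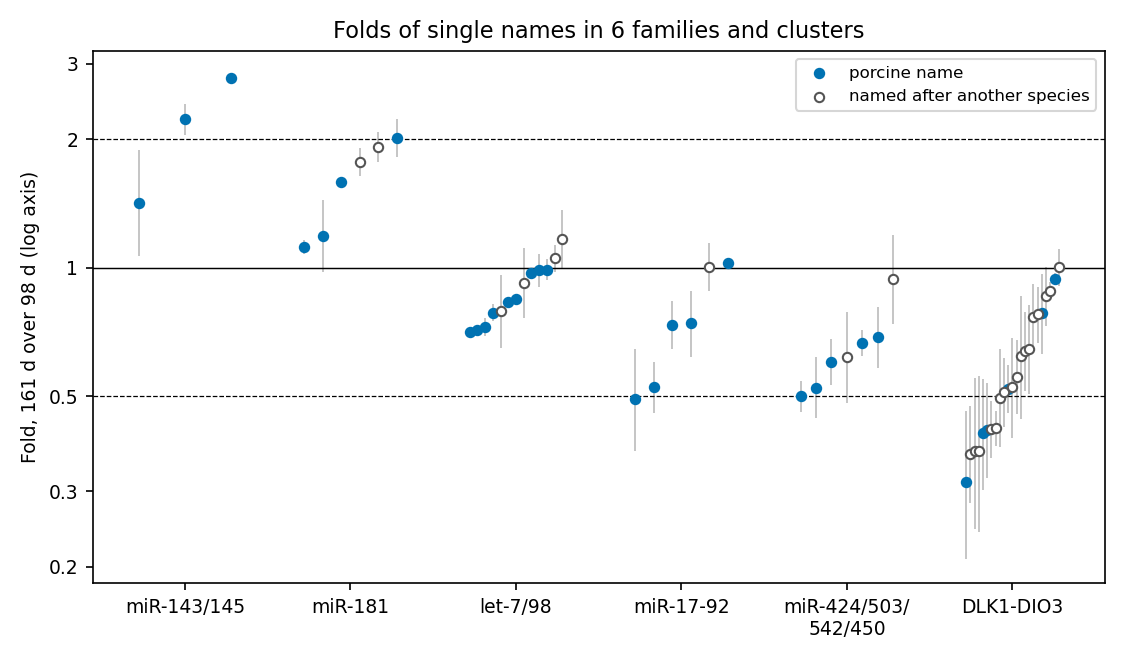
Fold of each counted name (161 d over 98 d, log axis) in 6 families and clusters, with 95% counting intervals as grey lines, filled points for porcine names and open points for names of other species; oar-miR-495-3p, listed at 0 reads at 161 d, is left out. The points of miR-143 with miR-145 and of miR-181 all lie above 1 (miR-181b and miR-181d-5p come below 1 when scaled by library totals), those of the miR-424 to miR-450 cluster all lie below 1, and the DLK1-DIO3 points run from 0.31 to 1.00.

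Summed by name, the miR-17-92 cluster, whose members are known to promote proliferation, was 1.00-fold. This came from miR-92a, which held 26208 of the 28292 reads at 98 d and was 1.03-fold. The reads of miR-92a and miR-19b are divided with hairpins of another cluster, on the X chromosome. By position, the 5 hairpins on chromosome 11 alone summed to 0.99-fold (0.96 to 1.01). The other counted porcine members were lower, from 0.49 for miR-19a and 0.53 for miR-19b to 0.74 for both miR-17-5p and miR-20a. miR-146a-5p, induced by NF-kB signalling, was 0.61-fold while miR-146b was 1.02-fold. The other porcine names with the lowest folds were miR-335 (0.31), miR-192 (0.32), miR-196a (0.55) and miR-130b (0.57). miR-335 had levels of 213, 415 and 128.2 at the 3 ages.

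Several names known from liver and intestine were highest in the 98 d library. miR-122 had 11, 297 and 12 reads at the 3 ages, a fold of 0.05 between the last 2 (0.03 to 0.09). miR-215 had 12, 447.5 and 42 reads (0.12-fold), and miR-192 had levels of 28.2, 176 and 56.9. miR-194b-5p, with 56 reads at 98 d and 6 at 161 d, was under the minimum for counting. The epithelium and liver list as a whole held 6 porcine names, of which 3 were counted, with summed levels of 655.7 at 98 d and 374.9 at 161 d. In that list miR-205 was 0.97-fold. The part of other tissue in these values was not tested. The blood markers miR-451 (0.88), miR-144 (0.66), miR-150 (0.79), miR-142-5p (0.83) and miR-142-3p (0.49) were lower as well, while bta-miR-223 was 1.10-fold. The nerve list was 0.90-fold as a sum and the fibroblast and mesenchyme list 0.997-fold. The 10 porcine names of the muscle list, the labelled tissue, summed to levels of 401256 at 98 d and 560755 at 161 d. Of these levels miR-133a-3p alone made up 361663 and 528949. In the same list miR-1, miR-206, miR-208b and miR-499-5p were lower on all reads and miR-133b was 1.04-fold, so the higher sum is not shared by the list. The values of miR-1 and miR-206 rest almost wholly on reads with a mapping error. On error-free reads miR-206 was not lower.

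Over the lists, 31 families and 21 clusters had at least 100 reads. Of the families 5 were at least 1.2-fold higher as a sum, 7 were lower and 19 lay between, from 0.52-fold for miR-19 to 1.52-fold for miR-181. Of the clusters 3 were higher, 5 lower and 13 between. By position, 28 groups of hairpins lay within 10000 bases of a neighbour on the same strand. In 20 of these all hairpins were on 1 side of 1, 9 above and 11 below. Most of the groups were pairs, and how many would agree by chance was not tested. Scaled by library totals, all hairpins of miR-425 with miR-191, of miR-497 with miR-195 and of miR-23b, miR-27b and miR-24 would come below 1. The groups of miR-132 with miR-212, of miR-23a, miR-27a and miR-24 and of the miR-181 pairs would become mixed. Of the groups above 1, only miR-143 with miR-145 would stay wholly above it. The 11 groups below 1 would stay below it. Hairpins with the same mature read share its reads in these files, so they are not independent.

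**Figure D3:**
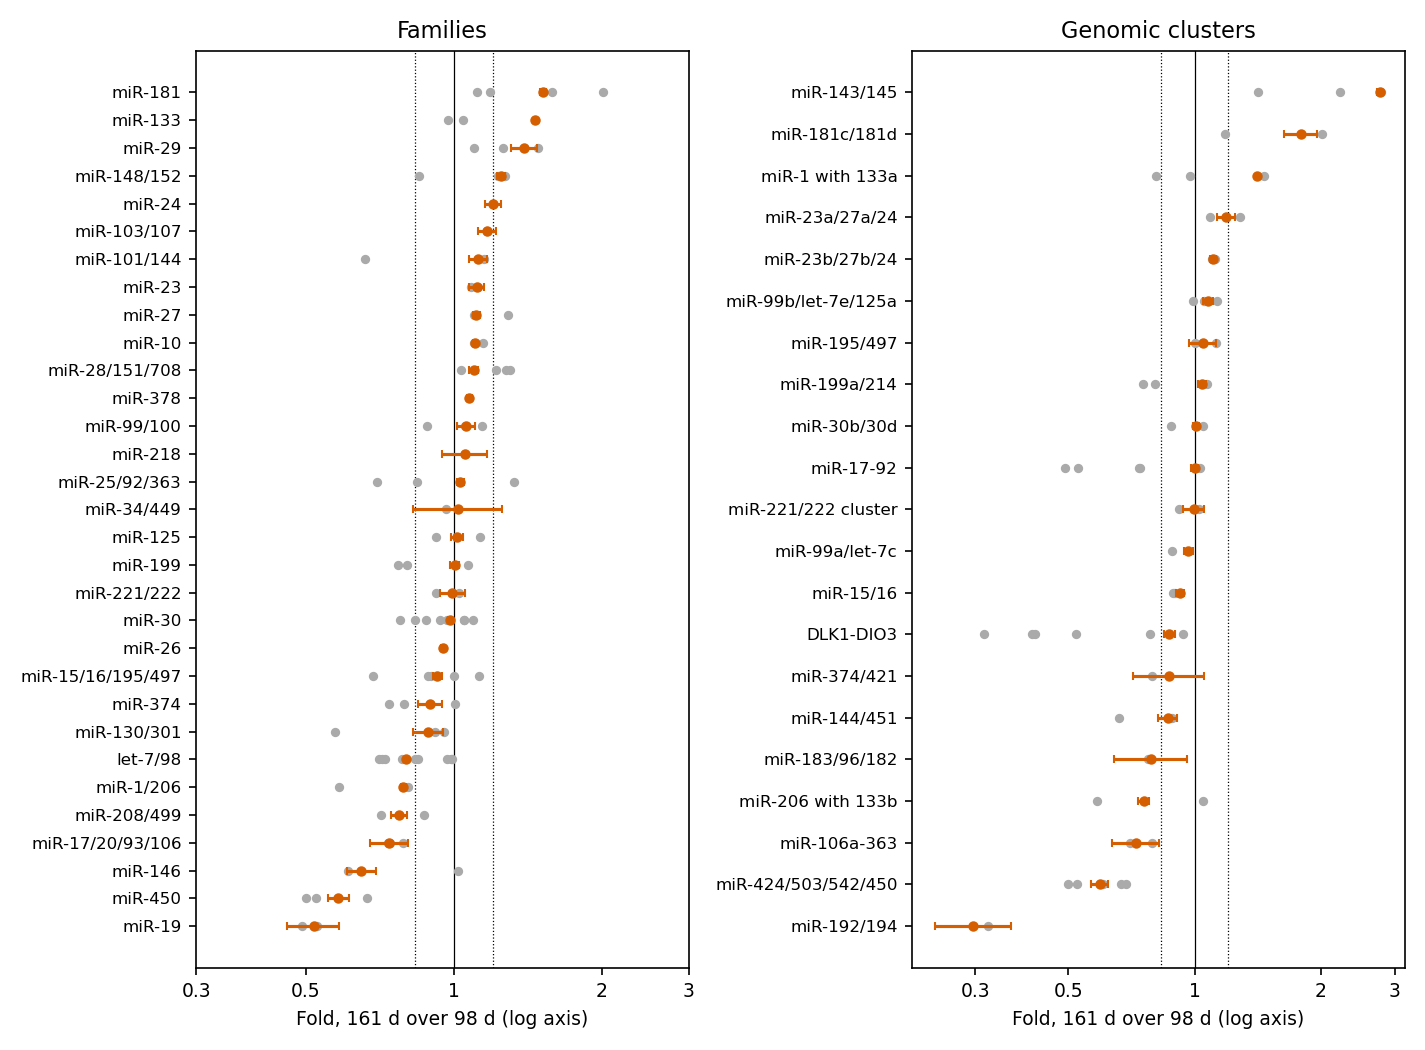
Summed fold (161 d over 98 d, log axis) of each family and genomic cluster with at least 100 reads, porcine names only, as orange points with 95% counting intervals, and the folds of the counted members as grey points. Dotted lines mark 1.2-fold in each direction. Most sums lie between the dotted lines, with miR-143 and miR-145 highest at 2.76 and miR-192 and miR-194 lowest at 0.30.

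Measured in percentage points, the balance between the arms of a hairpin changed little. Of the hairpins with both arms and at least 100 reads at each age, 1 (0.662%) moved by at least 10 percentage points and 10 (6.62%) by at least 5, and the median shift was 0.352 points. The largest was in miR-129a, whose 5p share was 37.9% at 98 d (32.2 to 43.3) and 48.6% at 161 d (42.2 to 54.7). Its 5p reads are divided with the hairpin of miR-129b, so this share depends on that division. miR-423 was the only hairpin whose more frequent arm changed, from 52.3% 5p to 47.5%. Of the 33 hairpins with at least 100 reads on each arm at each age, the folds of the 2 arms were within 1.5-fold of each other in 30. Both arms lay on the same side of 1 in only 18 of the 33, a side that depends on the scaling. Hairpins that share divided reads, such as those of miR-9, are each counted and are not independent.

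The length of the representative reads changed through 1 miRNA. In the 98 d library 80.2% of the copies had a length of 22 nt and 5.30% one of 23 nt, whereas the 161 d library held 47.8% and 39.4%. Without miR-133a-3p the share at 22 nt was 72.7% in the younger library and 72.6% in the older one. miR-133a-3p was represented at 98 d by a 22 nt read with 381364 copies and in the 161 d library by a 23 nt read with 420557 copies. As the printed pair shows, the 161 d read starts 1 base earlier, so that its seed differs from that at 98 d. The 63 d library listed the same read as 98 d. Each of these reads was 43.6% and 42.6% of the miR-133a-3p reads at its age. The files give 1 read per row, so the copies of the 22 nt read at 161 d and of the 23 nt read at 98 d are not known from them.

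**Figure D4:**
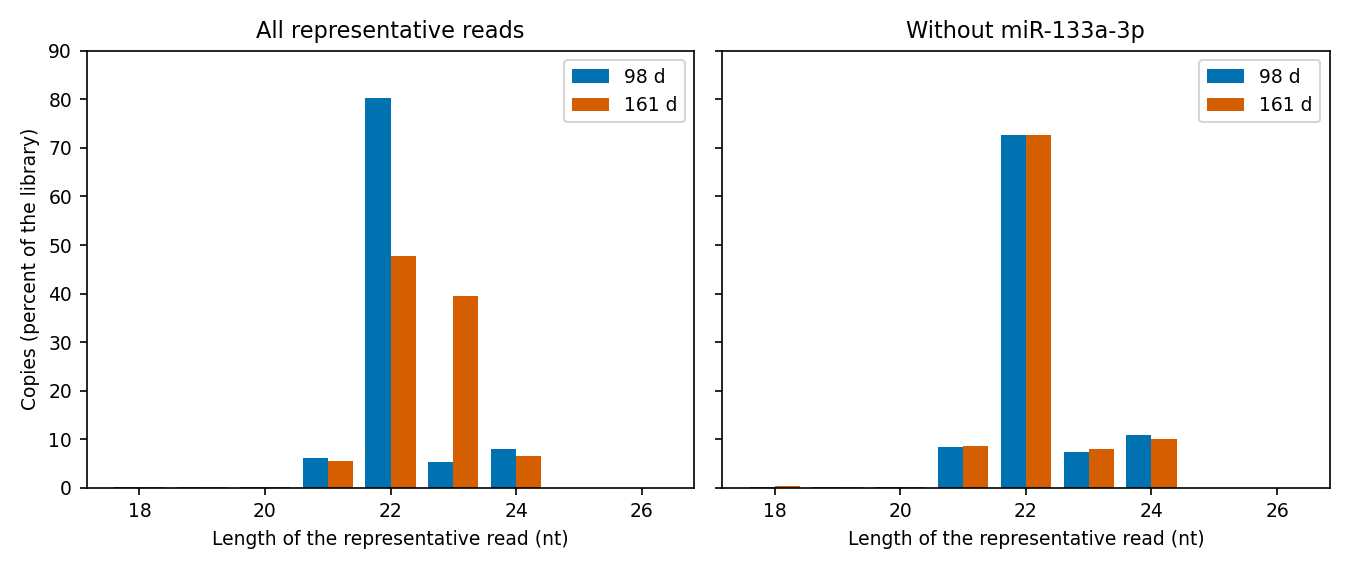
Percent of the copies of representative reads (y axis) by read length in nt (x axis) at 98 d and 161 d, for all names (left) and without miR-133a-3p (right). The bars at 22 nt and 23 nt differ between the ages on the left and are almost equal on the right.

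Of the 787 names in both libraries, 248 (31.5%) had a different representative read at 161 d. With at least 100 copies in both libraries this was 11 of 200, 8 of them at the 3′ end alone, and with at least 1000 copies it was 2 of 67. The second was miR-9, whose read lost 2 bases at the 3′ end, from 23 to 21 nt, and kept its seed.

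Of the 38 names past the 2-fold limit, 14 were porcine, 19 were named after other species and 5 were candidates. The counts include the candidate PC-5p-1089_320 (2.09-fold), whose 18 nt read resembles a library adapter. Its origin was not tested. Of the 19 names of other species, 9 had a representative read that was listed under another name in the other library. bta-miR-484 had 700.5 reads at 98 d and 111 at 161 d, while cgr-miR-484 had 0 and 425.5, and over all names of miR-484 the fold was 0.97 (0.89 to 1.05). In the same way hsa-miR-200a-3p had 112 and 0 reads, mdo-miR-200a-3p had 0 reads and a level of 77.8, and over all names of this arm the fold was 0.92 (0.78 to 1.07). The names sha-mir-716b-p5 and sha-mir-716b-p3 had 7345 and 42 reads at 98 d against 44.5 and 2320.5 at 161 d, and together they were 0.42-fold. oar-miR-495-3p had 169 reads at 98 d and 0 at 161 d, when bta-miR-495 had 64, and the pooled fold was 0.49 (0.36 to 0.66). hsa-mir-5100-p3 had levels of 0.41 and 65.4, but its read was also listed under hsa-mir-5100-p5, and over all names and both arms of mir-5100 the fold was 1.76 (1.36 to 2.28). mmu-mir-1983-p3 had 105 reads at 98 d and 0 at 161 d. The 3 candidates with at least 100 reads at 98 d and none at 161 d were PC-3p-5269_66, PC-3p-10985_32 and PC-5p-16136_23. Their levels at 98 d were 624, 50.7 and 44.2, and at 161 d a count of 0 allows up to 3 reads. The 98 d read of PC-3p-10985_32 differed only at its ends from the 161 d read of the candidate PC-3p-10429_33, which was higher at 161 d. For PC-3p-10985_32 the 0 therefore holds for the name and not for the sequence. Whether reads passed from one name to the other was not tested.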

How the data were processed

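Small RNA libraries were made with the Illumina TruSeq kit and sequenced on a HiSeq 2000, and the authors mapped and annotated the reads against miRBase with ACGT101-miR version 4.2. The genome build is not given in the sources used here. The deposited values are whole-number counts of the copies of a representative read and, per name and hairpin, estimated counts of all reads and of those without mapping error, which the authors' pipeline leaves fractional and which were rounded for TMM and the intervals. Read counts of a name with several hairpins are divided between them by the deposited files, so they were summed, although the design had foreseen 1 hairpin. The 98 d and 161 d libraries were compared after scaling by the median of ratios (0.771) with Python 3.11.15 code tested on simulated data. With 1 library per age no test could be made. Folds take a floor of 3 reads, their intervals are 95% Clopper-Pearson intervals, and PCR reads are not independent molecules. Alternative scalings (edgeR TMM among them), read columns, hairpin choices and minimums were run. Named miRNAs were the 10 porcine names with the largest folds each way among those with 100 reads in both libraries, the 10 with most reads, members of the listed families, clusters and markers, names whose read or arm share changed, and names of other species or candidates listed in 1 library only. Names outside this rule, such as miR-122 and miR-215 among the 2-fold names, are list members or were chosen after their values were seen. The members and lists were chosen with earlier results of these data known.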

Additional observations from a re-analysis of the deposited data

How the results depend on the processing

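No paired analysis was possible because each age has 1 library, and for the same reason no replicate could be left out. The count of names at least 2-fold higher (12) and lower (26) at 161 d depended most on the minimum: 62 and 94 with at least 10 reads in either library, 4 and 4 with at least 1000, 5 and 6 with at least 100 in both, and 5 and 9 with porcine names only. Scaling by library totals (CPM) gave 42 lower names, 2 families higher and 13 lower, and 12 clusters lower. Totals without miR-133a-3p gave 3 families higher and 8 clusters lower. Copies of the representative read gave 16 lower names and 3 families higher. Pooling names over species, an alternative chosen after seeing the data, gave 9 higher and 21 lower. The share at 22 nt was 27.6% at 98 d and 28.9% at 161 d with each distinct sequence counted once. It was 72.7% and 72.6% of the copies without miR-133a-3p. With all reads of a name given the length of its representative read it was 80.9% and 39.5%. This last weighting does not measure the lengths of the other reads. Arm shares moved by 10 points in 2 hairpins on copies and in 0 of 80 with at least 1000 reads. With at least 100 copies in both libraries the read changed in 11 names. The sum of miR-24 went from 1.202 to 0.999 under CPM, and that of miR-206 with miR-133b from 0.76 to 1.02 on error-free reads. The hairpin listed in most libraries had been foreseen as the main choice. It became an alternative once the reads proved to be divided between hairpins. With it bta-miR-484 went from 0.206 to 1.29-fold and hsa-miR-7641 from 14.98 to 0.33-fold. Over all names and both arms of mir-7641 the fold was 1.06. Of 364 summed folds (52 lists, 7 alternatives), 44 came to lie on the other side of 1, 20 of them under CPM, all from above, and 2 of the 44 (miR-24 and miR-206 with miR-133b) had been past 1.2-fold. Counting error limits names near 100 reads.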
